A study of Mus musculus with 23 samples.

Results

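The 45 genes described here encode regulators of chromatin and transcription that human genetics links to autism and related developmental disorders. They were chosen by a list of symbols, with a mean of at least 10 as the only measured value in the rule. The list was drawn up with earlier results of these data known. All 45 were found among the 18848 genes of the table, and all 45 had a mean of at least 10 normalised reads, the level above which 17256 genes were tested. The RNA was from the brain, with no region named in the labels, of C57BL/6J males aged 17 postnatal days. The mice were wild-type (WT) or heterozygous (HT) for Grin2b, in a series titled for the C456Y mutation of that gene, whose product GluN2B is a subunit of NMDA-type glutamate receptors. Each genotype received vehicle or DCS, a name commonly short for D-cycloserine, which partially activates NMDA receptors through their glycine site. The 4 groups were WT vehicle (6 libraries), WT DCS (5), HT vehicle (6) and HT DCS (6). The labels give neither the dose nor the duration of DCS.

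Proteins of this kind act on the nucleosome or on the transcription machinery. Remodellers slide or evict nucleosomes, methyltransferases and demethylases write and erase marks on histone tails, reader proteins bind those marks, and transcription factors and Mediator connect regulatory DNA to RNA polymerase II. In the young cortex many of them set the timing of neuronal maturation, and loss of a single copy of several causes intellectual disability or autism in humans.

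Many of these genes start in stretches of DNA rich in the dinucleotide CG. RefSeq windows of 250 bases before a transcription start (build GRCm38.p6) were at hand for 35 of the 45 genes, as 53 windows. For 47 of these windows, bases after the start were found somewhere in a GENCODE transcript of the gene. The median window of these genes held 15 CG, with a range from 0 to 51, against a median of 6 over all 32851 windows. At least 10 CG stood in 36 of the 53 windows (67.9%) and in 37.8% of all windows. The GC box, searched as GGGCGG on either strand, was in 64.2% of the genes' windows and in 32.7% of all windows. A match of letters is a description and not a bound site. Windows of 3 genes that differ in CG density and lie upstream of the annotated gene are printed 5′ to 3′ on the gene's strand, with each CG in capitals. They are Kmt2c with 48 CG (chr5:25498784-25499033, minus strand), Rai1 with 21 (chr11:60104763-60105012, plus strand) and Hectd4 with 12 (chr5:121219969-121220218, plus strand). Windows poor in CG are not printed. One of them is the only Setd5 window, with 0 CG and no GC box (chr6:113104685-113104934, plus strand). It lies inside the annotated gene (chr6:113077365-113153435) and so does not describe the DNA before the gene's first base. All 3 printed windows held a GC box.
Kmt2c: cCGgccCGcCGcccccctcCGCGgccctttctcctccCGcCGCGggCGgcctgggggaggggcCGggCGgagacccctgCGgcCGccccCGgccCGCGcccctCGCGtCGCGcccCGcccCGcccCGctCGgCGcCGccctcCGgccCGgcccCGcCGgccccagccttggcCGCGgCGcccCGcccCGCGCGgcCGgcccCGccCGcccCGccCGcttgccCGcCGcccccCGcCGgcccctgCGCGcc
Rai1: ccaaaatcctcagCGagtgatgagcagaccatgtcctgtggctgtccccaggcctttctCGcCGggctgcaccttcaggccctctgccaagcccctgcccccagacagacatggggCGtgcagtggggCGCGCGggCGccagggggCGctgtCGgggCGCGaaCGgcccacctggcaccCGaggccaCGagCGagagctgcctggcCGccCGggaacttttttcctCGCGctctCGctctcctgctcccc
Hectd4: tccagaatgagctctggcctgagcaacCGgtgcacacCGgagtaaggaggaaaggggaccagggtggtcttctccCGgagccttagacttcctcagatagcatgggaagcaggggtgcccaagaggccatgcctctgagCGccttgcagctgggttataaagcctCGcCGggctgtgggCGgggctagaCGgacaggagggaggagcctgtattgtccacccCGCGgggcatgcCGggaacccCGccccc

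The deposited values are decimal and have like totals, and are read here as normalised read counts, scaled between libraries, which compare 1 gene across libraries. Libraries summed to between 32.29 M and 33.55 M. From the step between low values, the reads counted in the genes of the table were estimated at 25.6 M (replicate 5 of HT DCS) to 37.4 M (replicate 4 of WT vehicle). The estimate is rough, since between 56.6% and 78.9% of low values lay near a whole multiple of that step. Nothing in the labels says whether libraries came from separate mice, so the p-values here reflect a spread between samples that may be technical. Grin2b itself read 17910.4 ± 1189 in WT vehicle, 18770.4 ± 2543 in WT DCS, 18272 ± 1885 in HT vehicle and 18948 ± 1882 in HT DCS (mean ± SD), which does not check a point mutation. Among the 13 marker lists of cell types and regions, cerebellar, striatal and hindbrain markers were present beside cortical ones. In bulk tissue, fewer cells of a type and less RNA per cell cannot be told apart. The 45 genes lay lowest against their own group's mean in 3 libraries, with 37 of 45 below it in WT DCS replicate 2, 36 in HT vehicle replicate 6 and 42 in HT DCS replicate 3, and at most 31 in any other library. Some of the results that rest on them are given with and without them, a choice made after the data were seen.

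The 45 genes are long and well expressed. Their summed exon length was 8.509 kb at the median, from 3.782 kb in Ctcf to 17.332 kb in Tnrc6b, against 3.387 kb over the 14976 protein-coding genes tested. All 45 were longer than that median, and the median regulator was longer than 94.1% of coding genes. Their median level was 2899 normalised reads, from 605.3 (Asxl3) to 25735 (Chd3), where all genes tested had a median of 572.6. Per kilobase of exon the median was 355.0, against 226.9 for the protein-coding genes only, a reference set that differs from that of the level. The highest levels per kilobase belonged to Chd3, the ATPase of the NuRD complex that is induced in neurons (3544), Smarcc2, a core subunit of the BAF remodeller (1876), and Cic, the capicua repressor (956.7). The lowest belonged to Asxl3, a partner of the histone H2A deubiquitinase BAP1 (51.7), Setbp1 (141.3) and Mbd5 (182.4).

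Library to library, the genes were steady. The highest library exceeded the lowest by a factor of 1.12 (Ankrd11) to 1.53 (Tnrc6b) over all 23 libraries, and the factor was under 2 for each of the 45. The within-group coefficient of variation had a median of 5.65%, against 8.32% over all genes tested and 5.37% over the 8439 genes with a level at least that of Asxl3. So 38 of 45 lay under the first of these medians and 19 of 45 under the second. The largest coefficients were those of Tnrc6b (10.5%), Chd8 (10.4%) and Tbl1xr1 (10.04%), and the smallest those of Ankrd11 (3.06%), Satb1 (3.41%) and Smarcc2 (3.54%).

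**Figure D1:**
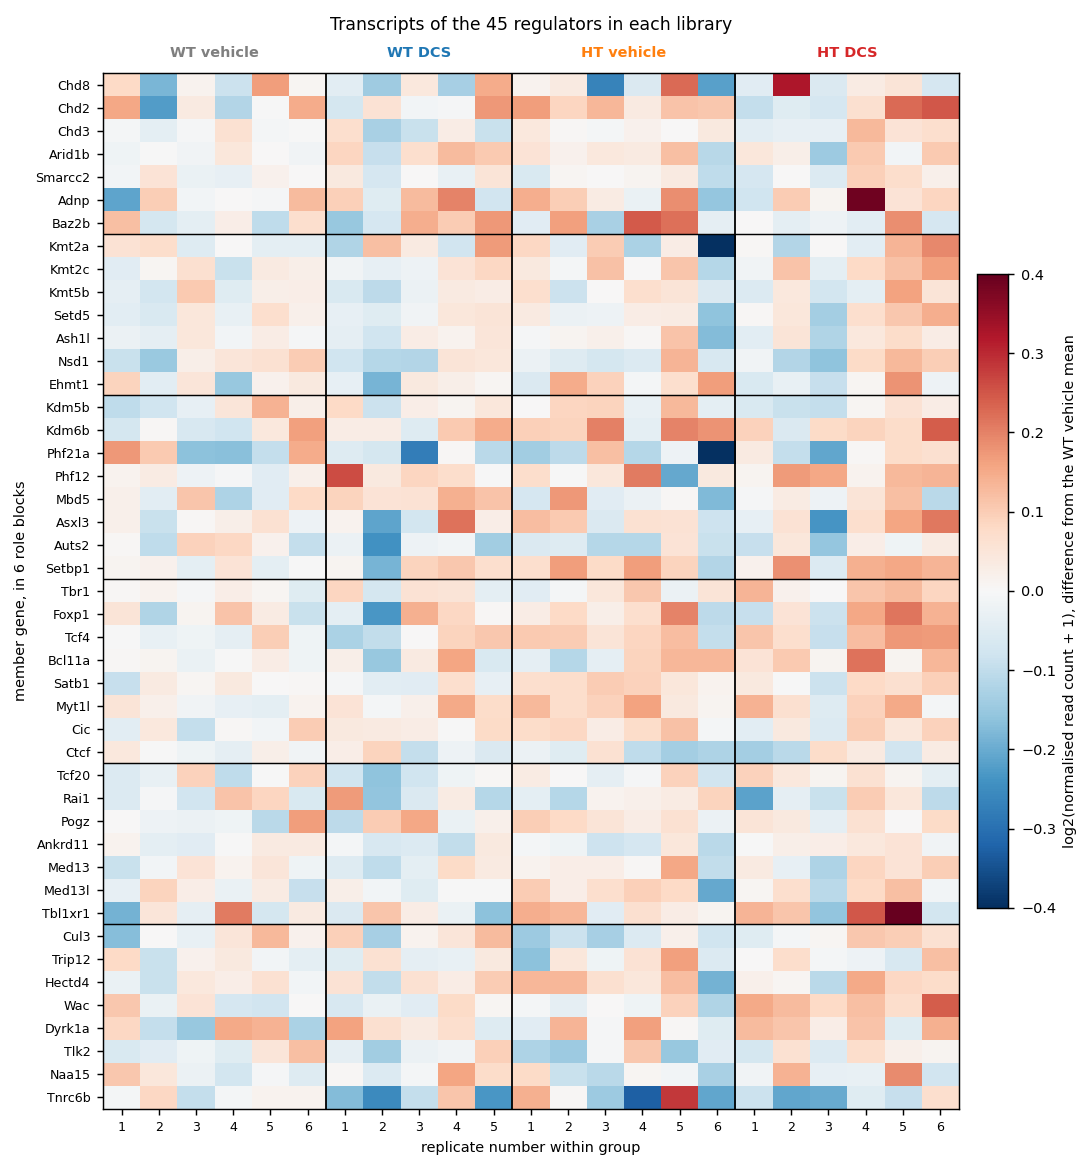
Each row is 1 of the 45 genes in 6 blocks by role, each column 1 of the 23 libraries in 4 groups, and the colour is log2(normalised read count + 1) minus the gene's WT vehicle mean, with colours ending at 0.4 in either direction. Most cells are pale, and WT DCS replicate 2, HT vehicle replicate 6 and HT DCS replicate 3 stand out as blue columns.

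The design asks whether the Grin2b mutation altered these transcripts, under vehicle and under DCS, whether DCS altered them in each genotype, and whether the 2 effects depended on each other. None of the 45 genes passed the test in any of the 4 pairwise comparisons, in the interaction or in the 2 averaged comparisons (limma on log2(value + 1), Benjamini-Hochberg adjusted p under 0.05 over 17256 genes). Each difference is the first group minus the second on that log2 scale. Over all genes the called share was 0% in each of these 7, so the regulators were like the rest in that respect. At an unadjusted p under 0.05, 3 of 45 stood out in HT vehicle against WT vehicle (4.22% of all genes), 2 in HT DCS against WT DCS (7.55%), 0 in WT DCS against WT vehicle (2.88%) and 3 in HT DCS against HT vehicle (4.8%). Those in the first 2 of these were Kdm6b, Myt1l and Satb1, and Wac and Tcf20, and those in the last were Wac, Cul3 and Ankrd11. The differences were small: 95% intervals lay within 0.3 log2 units of 0 for 45, 45, 44 and 45 of the 45 genes in that order, the exception being Tnrc6b in WT DCS against WT vehicle with a lower bound of -0.302. No gene had libraries of the 2 groups that did not overlap in any pairwise comparison, where 0.249%, 0.411%, 0.33% and 0.127% of all genes did.

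More of the fitted differences lay above 0 than below it in HT mice, by small amounts. In HT vehicle against WT vehicle 29 of 45 lay above 0, with a median of 0.022, against 49.7% of all genes. In HT DCS against WT DCS 37 of 45 lay above 0, with a median of 0.034, against 49.8% of all genes. For DCS the counts were 21 of 45 in WT (median -0.0039, 50.3% of all genes) and 30 of 45 in HT (median 0.023, 49.3% of all genes). Over all genes the medians were -0.00045, -0.00032, 0.00033 and -0.0012 in the same order. These genes vary together from library to library, as described further on, so their directions are not separate observations, and comparisons that share a group share its deviations. Without the 3 libraries named above, the counts were 33, 36, 31 and 30 of 45, and the median for DCS in WT was 0.014. Those libraries were picked for low values of these same genes, and none is in WT vehicle. Leaving them out therefore raises the other groups against WT vehicle by construction and is no check. High libraries, such as HT DCS replicate 4 with 37 of 45 above its group mean, were kept. For DCS in HT the low libraries moved the median in opposite directions. Without HT vehicle replicate 6 alone it was 0.0034, with 23 of 45 above 0, and without HT DCS replicate 3 alone it was 0.042, with 35 of 45 above 0. The same held for HT DCS against WT DCS. Without WT DCS replicate 2 alone 30 of 45 lay above 0 (median 0.021), and without HT DCS replicate 3 alone 39 did (0.052). Without HT DCS replicate 5 alone it was 30 of 45 (0.025).

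**Figure D2:**
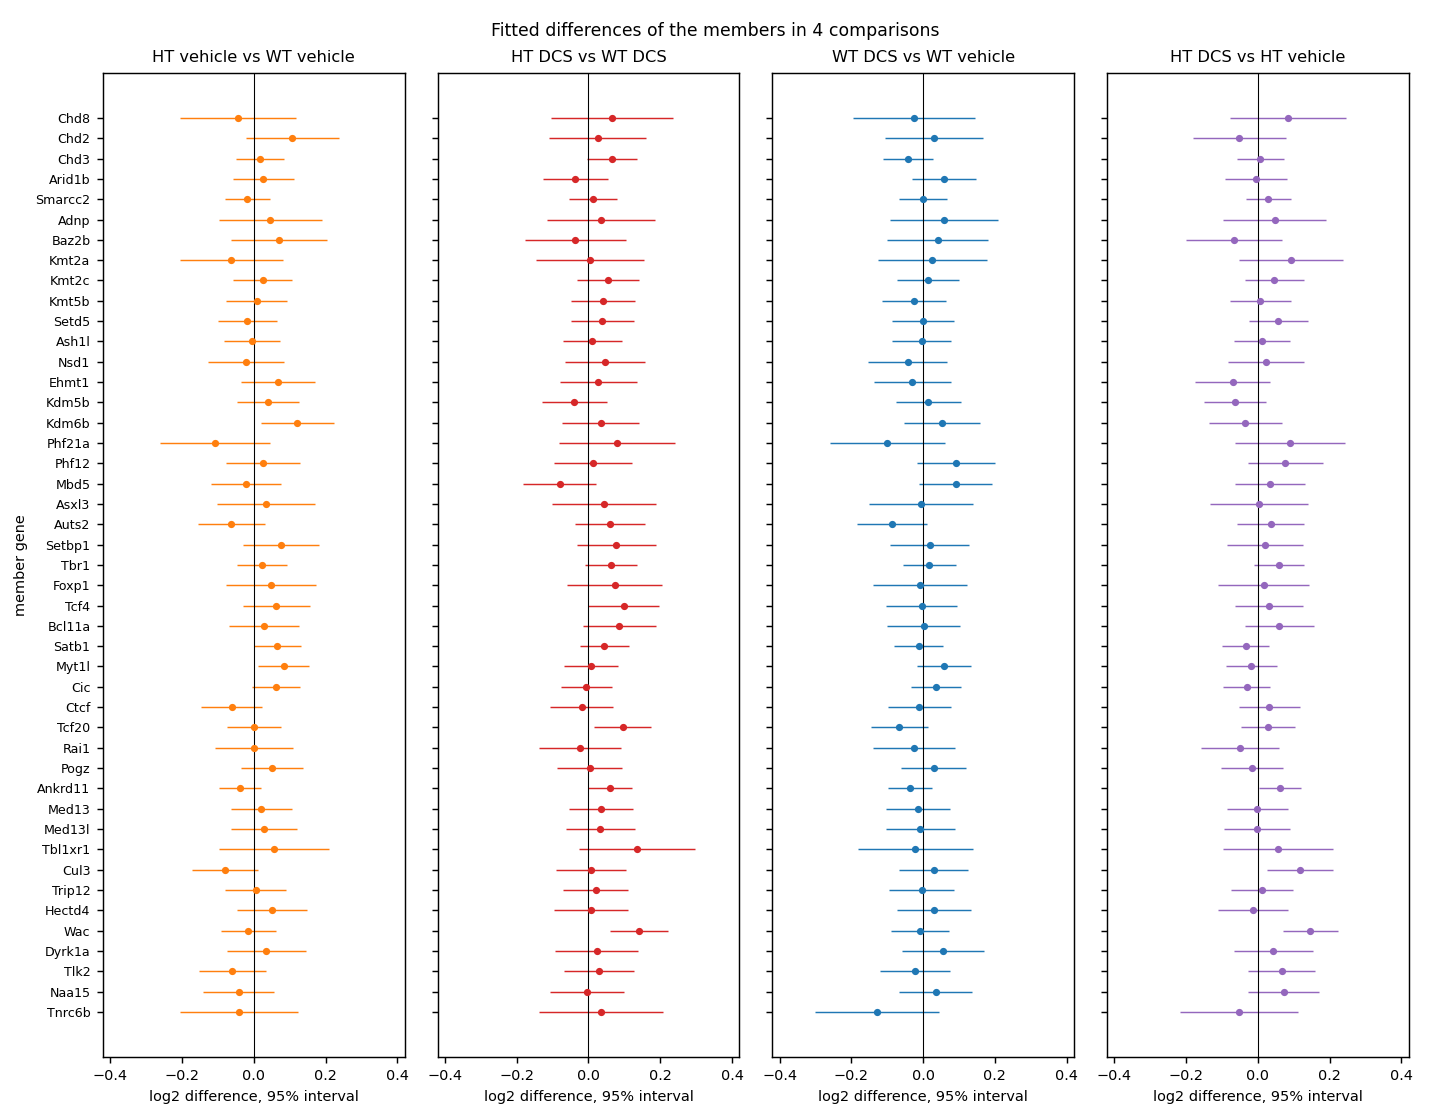
Points are fitted log2 differences of the 45 genes in the 4 pairwise comparisons, and bars are 95% intervals of limma. Points stay between -0.13 and 0.15, and most bars cross 0, while those of Wac lie above 0 in both comparisons of HT DCS.

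The genes are taken by role, with positions from GENCODE M21 on GRCm38. Of the nucleosome remodellers, 7 genes, none had an unadjusted p under 0.05 in the pairwise comparisons. Chd8 and Chd2, chromodomain helicases linked to autism and to epilepsy, differed between HT vehicle and WT vehicle by -0.04 and 0.11. All 6 HT vehicle libraries of Chd2 exceeded the WT vehicle mean. The remodeller Chd3 read 25698 ± 594 in WT vehicle, 24987 ± 1491 in WT DCS, 25992 ± 372 in HT vehicle and 26138 ± 1283 in HT DCS (mean ± SD). Smarcc2, Adnp, the homeodomain protein of the ChAHP complex, and Baz2b, a bromodomain protein of ISWI-type remodellers, had differences of 0.01, 0.04 and -0.04 between HT DCS and WT DCS. Arid1b, the DNA-binding subunit of BAF (chr17:4994332-5347656), ranged from 3052 to 3184 (median 3072) in WT vehicle, at 3279, 2895, 3234, 3369.7 and 3319.8 in WT DCS, from 2858 to 3355 (median 3175) in HT vehicle and from 2795 to 3323 (median 3164) in HT DCS. One WT DCS library, replicate 2, was low, and all groups overlapped. Its difference in HT DCS against WT DCS was -0.04 ± 0.04 (SE, limma adjusted p = 0.871), and without HT DCS replicate 3 it was -0.0041.

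Of the 7 histone methyltransferases and SET proteins, 3 had values above 0 in HT vehicle against WT vehicle (49.7% of all genes). In HT DCS against WT DCS 7 of 7 did (median 0.039, 49.8% of all genes), and none passed the test. Without WT DCS replicate 2, Ash1l fell to -0.0082 and Ehmt1 to -0.0117, and without WT DCS replicate 1 Kmt2a fell to -0.0332. Kmt2c, Kmt5b, Setd5 and Nsd1 stayed above 0 whichever library was left out. Kmt2a and Kmt2c, which methylate histone H3 at lysine 4, differed by 0.0037 and 0.06 in HT DCS against WT DCS over all libraries. Kmt5b, which methylates H4 lysine 20, differed by 0.04, Setd5 by 0.04, and the lysine 36 enzymes Ash1l and Nsd1 by 0.01 and 0.05. Setd5 was low in 2 of the 3 libraries named above: it read 4527 in HT vehicle replicate 6 against 4983 to 5192 in the other 5 of that group, and 4614 in HT DCS replicate 3 against 5086 to 5606. Ehmt1, an H3 lysine 9 methyltransferase (chr2:24789928-24919614), ranged from 1329.7 to 1570.3 (median 1505) in WT vehicle, at 1444, 1296, 1517, 1499 and 1483 in WT DCS, from 1418 to 1657 (median 1559) in HT vehicle and from 1385 to 1671 (median 1451) in HT DCS. Of the HT DCS libraries 5 lay below the HT vehicle mean and replicate 5 was the highest of all. The difference for HT DCS against HT vehicle was -0.07 ± 0.05 (SE, limma adjusted p = 0.973), and -0.03 without the 3 low libraries.

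The group of demethylases, readers and Polycomb-linked factors, 8 genes, held the largest genotype difference under vehicle. Kdm6b (chr11:69398508-69413675), which removes methyl groups from H3 lysine 27 and is induced by neuronal activity, ranged from 2035 to 2409.9 (median 2107) in WT vehicle, at 2193, 2193, 2074, 2314 and 2381 in WT DCS, from 2094 to 2472 (median 2366) in HT vehicle and from 2065 to 2544 (median 2276) in HT DCS. Of the 6 HT vehicle libraries, 5 lay above every WT vehicle library but replicate 6, and replicate 4 lay among the WT vehicle libraries. The difference was 0.12 ± 0.05 (SE, limma adjusted p = 0.999), with a 95% interval from 0.02 to 0.22, and under DCS it was 0.03. Phf21a, a reader in the LSD1 corepressor complex (chr2:92093117-92364666), ranged from 1499.6 to 1901 (median 1696) in WT vehicle, at 1627, 1604, 1391, 1689 and 1565 in WT DCS, from 1279 to 1833 (median 1561) in HT vehicle and from 1458 to 1772 (median 1709) in HT DCS. The WT vehicle libraries fell into 3 high and 3 low ones, and HT vehicle replicate 6 was the lowest of all. The difference between HT vehicle and WT vehicle was -0.11 ± 0.07 (SE, limma adjusted p = 0.999), and -0.05 without that library. Mbd5, a methyl-binding-domain protein (chr2:48949508-49325405), ranged from 1977 to 2323 (median 2137) in WT vehicle, at 2288, 2236, 2239.5, 2375 and 2330.2 in WT DCS, from 1904 to 2429 (median 2102) in HT vehicle and from 1997 to 2339.9 (median 2174) in HT DCS. All 5 WT DCS libraries exceeded the WT vehicle mean, with a difference of 0.09 ± 0.05 (SE, limma adjusted p = 0.999999).

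Kdm5b, which erases H3 lysine 4 methylation (chr1:134560171-134635285), ranged from 2159 to 2554 (median 2312) in WT vehicle, at 2451, 2184, 2359.5, 2334 and 2390.5 in WT DCS, from 2254 to 2535 (median 2391) in HT vehicle and from 2169 to 2414 (median 2276) in HT DCS. Its difference for HT DCS against HT vehicle was -0.06 ± 0.04 (SE, limma adjusted p = 0.973), and the groups overlapped. Phf12, a partner of the Sin3 deacetylase complex (chr11:77982754-78030539), ranged from 1623 to 1714 (median 1679.7) in WT vehicle, at 2005, 1719.8, 1779, 1757 and 1674 in WT DCS, from 1452 to 1934 (median 1724) in HT vehicle and from 1687 to 1883 (median 1836) in HT DCS. WT vehicle libraries were tightly grouped and WT DCS replicate 1 was far above them. The difference averaged over genotypes was 0.08 ± 0.04 (SE, limma adjusted p = 0.999995). Auts2, an activating partner of a Polycomb complex (chr5:131437333-132543344), ranged from 2682 to 3073 (median 2903) in WT vehicle, at 2834, 2434, 2843, 2861 and 2616 in WT DCS, from 2659 to 2992 (median 2737) in HT vehicle and from 2587 to 2971 (median 2890.2) in HT DCS. All 5 WT DCS libraries lay below the WT vehicle mean, and the ranges overlapped, with a difference of -0.09 ± 0.05 (SE, limma adjusted p = 0.999999) that was -0.048 without WT DCS replicate 2. Asxl3 and Setbp1 differed by 0.03 and 0.08 under vehicle and by 0.04 and 0.08 under DCS between genotypes.

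Of the 8 DNA-binding transcription factors, 7 had values above 0 in HT vehicle against WT vehicle (median 0.055) and 6 in HT DCS against WT DCS (median 0.053). Over all genes 49.7% and 49.8% were above 0, and the medians were near 0. Myt1l, a neuronal zinc-finger repressor of non-neuronal genes (chr12:29528384-29923213), ranged from 7841 to 8354 (median 8057) in WT vehicle, at 8364, 8012, 8176, 8956 and 8475 in WT DCS, from 8113 to 9004 (median 8525) in HT vehicle and from 7776 to 8951 (median 8513) in HT DCS. All 6 HT vehicle libraries lay above the WT vehicle mean, and 2 of them lay below the highest WT vehicle library. The difference was 0.08 ± 0.03 (SE, limma adjusted p = 0.999). Satb1, an organiser of chromatin loops and a factor of cortical interneurons (chr17:51736187-51833290), ranged from 3371 to 3692 (median 3608) in WT vehicle, at 3582, 3485, 3481, 3758 and 3508 in WT DCS, from 3624 to 3857 (median 3767) in HT vehicle and from 3386 to 3838 (median 3721) in HT DCS. The 6 HT vehicle libraries again lay above the WT vehicle mean, and WT vehicle replicate 1 was far below the rest. The difference was 0.07 ± 0.03 (SE, limma adjusted p = 0.999) and was 0.047 without that library.

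Tcf4, the basic helix-loop-helix factor lost in Pitt-Hopkins syndrome, ranged from 8755 to 9608 (median 8861) in WT vehicle, at 8214, 8381, 8981, 9542 and 9665 in WT DCS, from 8396 to 9758 (median 9564) in HT vehicle and from 8420.2 to 10109 (median 9732) in HT DCS. In HT groups 1 library each was low, HT vehicle replicate 6 and HT DCS replicate 3, and the other 10 lay between 9302 and 10109. The difference averaged over treatments was 0.08 ± 0.03 (SE, limma adjusted p = 0.65), and without the 3 low libraries it was 0.10 with an adjusted p of 0.248. Cic (chr7:25267704-25294159) ranged from 7846 to 9003 (median 8365) in WT vehicle, at 8626, 8589, 8551, 8374 and 8837 in WT DCS, from 8338 to 9098 (median 8825) in HT vehicle and from 8075 to 8971 (median 8634) in HT DCS. Its groups overlapped throughout, with an interaction of -0.07 ± 0.05 (SE, limma adjusted p = 0.984). Ctcf, the insulator protein that stops cohesin (chr8:105636568-105682922), ranged from 1967 to 2077 (median 2004) in WT vehicle, at 2052, 2145, 1887, 1988 and 1936 in WT DCS, from 1833 to 2101 (median 1913) in HT vehicle and from 1835 to 2122 (median 1985) in HT DCS. In HT vehicle it was below the WT vehicle mean in 5 of 6 libraries, with a difference of -0.06 ± 0.04 (SE, limma adjusted p = 0.999). The cortical factors Tbr1, Foxp1 and Bcl11a differed by 0.06, 0.07 and 0.09 between HT DCS and WT DCS, and all 6 HT DCS libraries of Bcl11a exceeded the WT DCS mean.

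Among 7 coregulators, Tcf20 (chr15:82808436-82987872), a nuclear coactivator related to Rai1, ranged from 3233 to 3698 (median 3429.8) in WT vehicle, at 3279.8, 3103, 3279, 3422 and 3475 in WT DCS, from 3289 to 3699 (median 3460.3) in HT vehicle and from 3375 to 3697 (median 3529) in HT DCS. The HT DCS libraries lay above the WT DCS mean in 6 of 6 cases, and WT DCS replicates 4 and 5 overlapped them. The difference was 0.10 ± 0.04 (SE, limma adjusted p = 0.64), with an interval from 0.02 to 0.18. WT DCS differed from WT vehicle by -0.07, and the HT DCS mean of 3539 lay near the WT vehicle mean of 3471. Ankrd11 (chr8:122883822-123042277), which recruits histone deacetylases, ranged from 7805 to 8256 (median 8087) in WT vehicle, at 7999.6, 7701, 7750.4, 7519 and 8275 in WT DCS, from 7468 to 8313 (median 7819) in HT vehicle and from 7967 to 8356 (median 8190.5) in HT DCS. HT DCS libraries lay close together, and all 6 lay above both the HT vehicle and the WT DCS means. The interaction was 0.10 ± 0.04 (SE, limma adjusted p = 0.984). Rai1, Pogz, a heterochromatin-protein-binding zinc-finger protein, and Med13 and Med13l, which join the kinase module to Mediator, had differences of 0.00021, 0.05, 0.02 and 0.03 between HT vehicle and WT vehicle. Tbl1xr1, an exchange factor of the NCoR corepressor, differed by 0.13 under DCS, with an interval from -0.03 to 0.30 that was among the widest. Its HT DCS replicate 5 read 2898, against 1946 to 2579 in the other 5 HT DCS libraries, and the difference was 0.07 without it.

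The last 8 genes are ubiquitin ligases, kinases and related regulators, and Wac and Cul3 among them had the smallest p-values of the 45 for DCS in HT mice. Wac, an adaptor for the ubiquitin ligase of histone H2B, ranged from 3246 to 3686 (median 3393) in WT vehicle, at 3274, 3361, 3316, 3606 and 3436 in WT DCS, from 3145 to 3642 (median 3391) in HT vehicle and from 3590.4 to 4043 (median 3726) in HT DCS. Every HT DCS library lay above all HT vehicle libraries but replicate 5 (3642) and above all WT DCS libraries but replicate 4 (3606), so the ranges overlapped only at those libraries. HT DCS exceeded HT vehicle by 0.15 ± 0.04 (SE, limma adjusted p = 0.714), or 10.7%, and WT DCS by 0.14 ± 0.04 (SE, limma adjusted p = 0.596), or 10.3%. In WT, DCS and vehicle differed by -0.0099, and under vehicle HT and WT by -0.01. The interaction was 0.16 ± 0.05 (SE, limma adjusted p = 0.984). Wac had the smallest adjusted p of any of the 45 genes under any setting tried, 0.192, for HT DCS against WT DCS without HT DCS replicate 3, so no setting brought it past the threshold.

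Cul3 (chr1:80264923-80340480), the scaffold of a family of ubiquitin ligases that use BTB-domain adaptors, ranged from 3760.5 to 4631 (median 4259) in WT vehicle, at 4518, 3855, 4271, 4374 and 4614 in WT DCS, from 3827 to 4285 (median 3994) in HT vehicle and from 4092 to 4559 (median 4334) in HT DCS. Libraries of HT vehicle were low, with 5 of 6 below the WT vehicle mean, and all 6 HT DCS libraries lay above the HT vehicle mean. The difference was 0.12 ± 0.04 (SE, limma adjusted p = 0.973) for HT DCS against HT vehicle and -0.08 ± 0.04 (SE, limma adjusted p = 0.999) for HT vehicle against WT vehicle, 2 comparisons that share the HT vehicle group. Tnrc6b, an Argonaute partner in RNA silencing (chr15:80711313-80941085), ranged from 4482 to 5066 (median 4797) in WT vehicle, at 4247, 4010.2, 4481, 5166 and 4073 in WT DCS, from 3816 to 5821 (median 4566) in HT vehicle and from 4147 to 5015 (median 4498) in HT DCS. Its HT vehicle group spread the widest, and WT DCS replicate 4 stood apart above the other 4, with a difference between WT DCS and WT vehicle of -0.13 ± 0.08 (SE, limma adjusted p = 0.999999). The ligases Trip12 and Hectd4, the kinases Dyrk1a and Tlk2, and Naa15, a subunit of an amino-terminal acetyltransferase, differed by 0.01, -0.01, 0.04, 0.07 and 0.07 for HT DCS against HT vehicle.

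**Figure D3:**
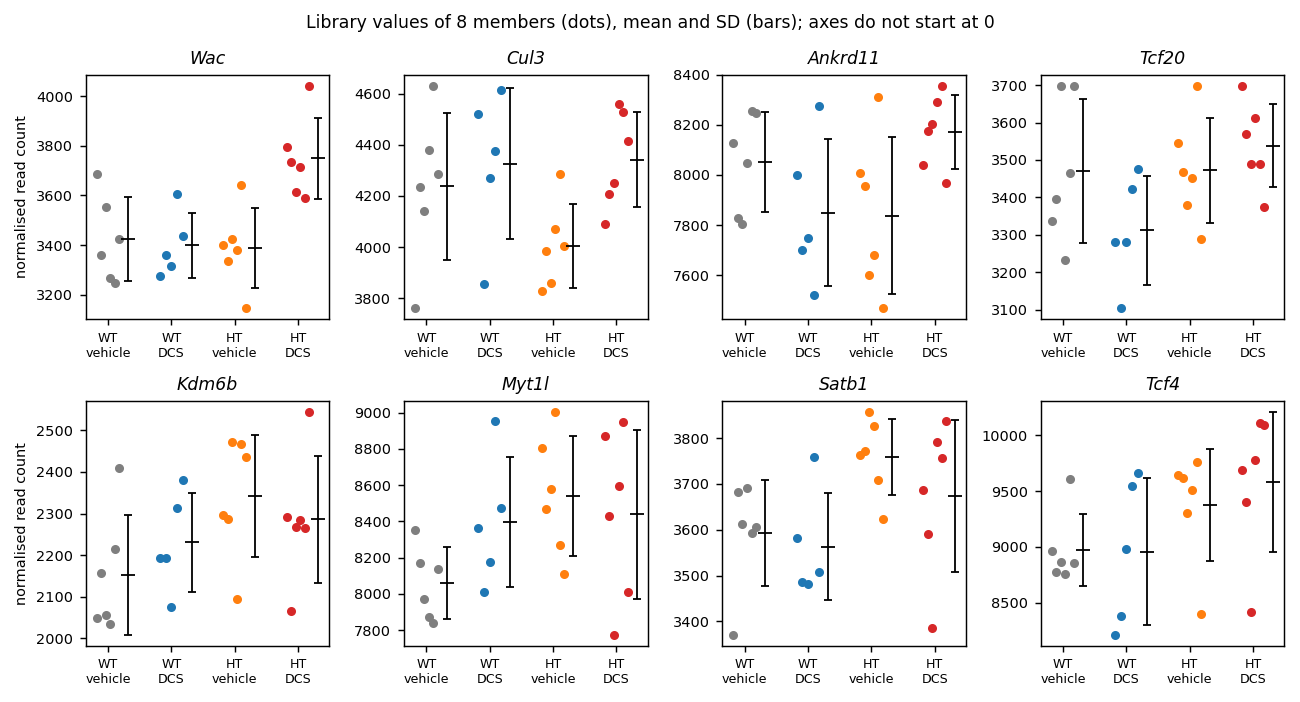
Dots are normalised read counts of 8 genes in each of the 23 libraries by group, and bars show mean and SD to the right of them, on axes that do not start at 0. Wac stands highest in HT DCS and Cul3 lowest in HT vehicle, and in each panel the ranges of the groups overlap.

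The interaction and the averaged comparisons gave small values too. In the interaction, the DCS effect in HT minus that in WT, 2 of 45 genes (Wac and Ankrd11) had an unadjusted p under 0.05 against 4.38% of all genes. Averaged over treatments, HT against WT had 4 of 45 (Tcf4, Satb1, Wac and Kdm6b) against 7.17%, and 32 of 45 values above 0 (median 0.027, against 49.5% of all genes). Averaged over genotypes, DCS against vehicle had 3 of 45 (Wac, Phf12 and Cul3) against 3.16%, and 29 of 45 above 0 (median 0.0088, against 49.2%). For the interaction 29 of 45 lay above 0 (median 0.025, against 49.3%). Without the 3 low libraries, picked on these genes, 23, 38 and 32 of 45 lay above 0 in the interaction and the averaged HT and DCS comparisons. The unadjusted limma p was then under 0.05 for 3, 9 and 6 of 45, and for 1301, 1543 and 1069 of all 17256 genes.

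Genes that work with the 45 were read from 9 lists of 183 genes, and none passed the test in any comparison (limma, adjusted p under 0.05). At an unadjusted p under 0.05 the counts were 3, 9, 2 and 13 of 183 for HT vehicle against WT vehicle, HT DCS against WT DCS, WT DCS against WT vehicle and HT DCS against HT vehicle, where all genes gave 4.22%, 7.55%, 2.88% and 4.8%. Values above 0 made up 54.6%, 58.5%, 50.8% and 51.9% of the 183, against 49.7%, 49.8%, 50.3% and 49.3% of all genes, and medians were 0.010, 0.010, 0.0017 and 0.0025. Mbd3, a NuRD subunit beside Chd3, had the smallest p, with 2312 ± 132 in HT DCS and 2545 ± 72.4 in HT vehicle, a difference of -0.14 ± 0.04 (SE, limma adjusted p = 0.714). Smarce1, a BAF subunit beside Arid1b, read 1991 ± 118 and 1774 ± 170 in the same groups (0.17, limma adjusted p = 0.973). Med15 of Mediator read 2140 ± 168 and 1931 ± 107 (0.15, limma adjusted p = 0.973). Tet2, which oxidises methylcytosine, read 1729 ± 170 in HT DCS and 1529 ± 141 in WT DCS (0.18, limma adjusted p = 0.613). None of these differences passed the threshold.

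Marker lists of other cell types and regions were read in the same comparisons, and no marker passed the test. All 7 oligodendrocyte markers were lower in HT than WT under vehicle (mean difference -0.09) and under DCS (-0.23). Summed oligodendrocyte levels were 443952 to 508412 in WT vehicle, 432604 to 508400 in WT DCS, 382344 to 482162 in HT vehicle and 316743 to 491427 in HT DCS. Striatal markers were lower in 6 of 7 and 7 of 7 (-0.14 and -0.13), and hindbrain markers in 8 of 9 and 9 of 9 (-0.45 and -0.53). In HT DCS the hindbrain list lay at -1.44 and -0.83 from its group mean in replicates 5 and 6, and above that mean in the others. Its summed level was 1292 to 1689 in WT DCS and 621 to 1673 in HT DCS. Cortical markers, left to 6 genes outside the 45, were higher in 4 of 6 and 5 of 6 (0.03 and 0.06). Markers of meninges and choroid plexus were higher in 6 of 6 under vehicle (0.22) and lower in 5 of 6 under DCS (-0.17). Microglial markers were higher in HT in 7 of 7 and 6 of 7 (0.14 and 0.18), endothelial markers in 5 of 5 both times (0.07 and 0.11), and markers of immature neurons and progenitors in 5 of 6 both times (0.08 and 0.12). Neuronal markers were higher in HT in 5 of 9 and 4 of 9 (-0.0014 and -0.0025), and astrocyte markers in 6 of 7 and 4 of 7 (0.03 and 0.007). For oligodendrocyte precursors it was 4 of 6 and 2 of 6 (0.04 and -0.005), and for pericytes and smooth muscle 4 of 5 both times (0.15 and 0.06). Cerebellar markers were higher in 4 of 8 and 1 of 8 (0.01 and -0.08). The part of these lists in the differences of the regulators was not tested.

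After group means were removed, the regulators tended to deviate together in a library. The median Pearson correlation over their 990 pairs was 0.24 across the 23 libraries, 804 pairs were above 0 and 150 (15.2%) above 0.5. Over all gene pairs the median was -0.0007, with 2.63% above 0.5, and over 4400 coding genes at least as high and as long as the lowest and shortest of the 45 it was 0.0515, with 5.95%. All pairs share the same libraries, and these values are descriptions. Without the 3 low libraries the median was 0.115 and 60 pairs (6.06%) were above 0.5, against 0.0137 and 4.48% for the 4400 genes. The first principal component took 30.6% of the variation of the 45.

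The co-variation was uneven among the genes. The highest mean correlation with the other genes belonged to Ash1l (0.43), Setd5 (0.43), Hectd4 (0.41), Med13 (0.41), Arid1b (0.40), Asxl3 (0.40) and Tcf4 (0.40). The closest pairs were Setd5 and Tcf4 (r = 0.87, Spearman 0.82, 0.74 without the 2 libraries farthest from the median), Setd5 and Ash1l (0.85), Ash1l and Hectd4 (0.85) and Arid1b and Med13 (0.83). At the other end, Phf12 (-0.12) and Ctcf (-0.11) had mean correlations under 0. The pair Pogz and Rai1 was at -0.55, and Baz2b and Ctcf were at -0.54. Over the 45 genes the mean correlation was higher for longer exons, with a Pearson value of 0.48 and a Spearman value of 0.50, and length was not separated from gene identity.

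**Figure D4:**
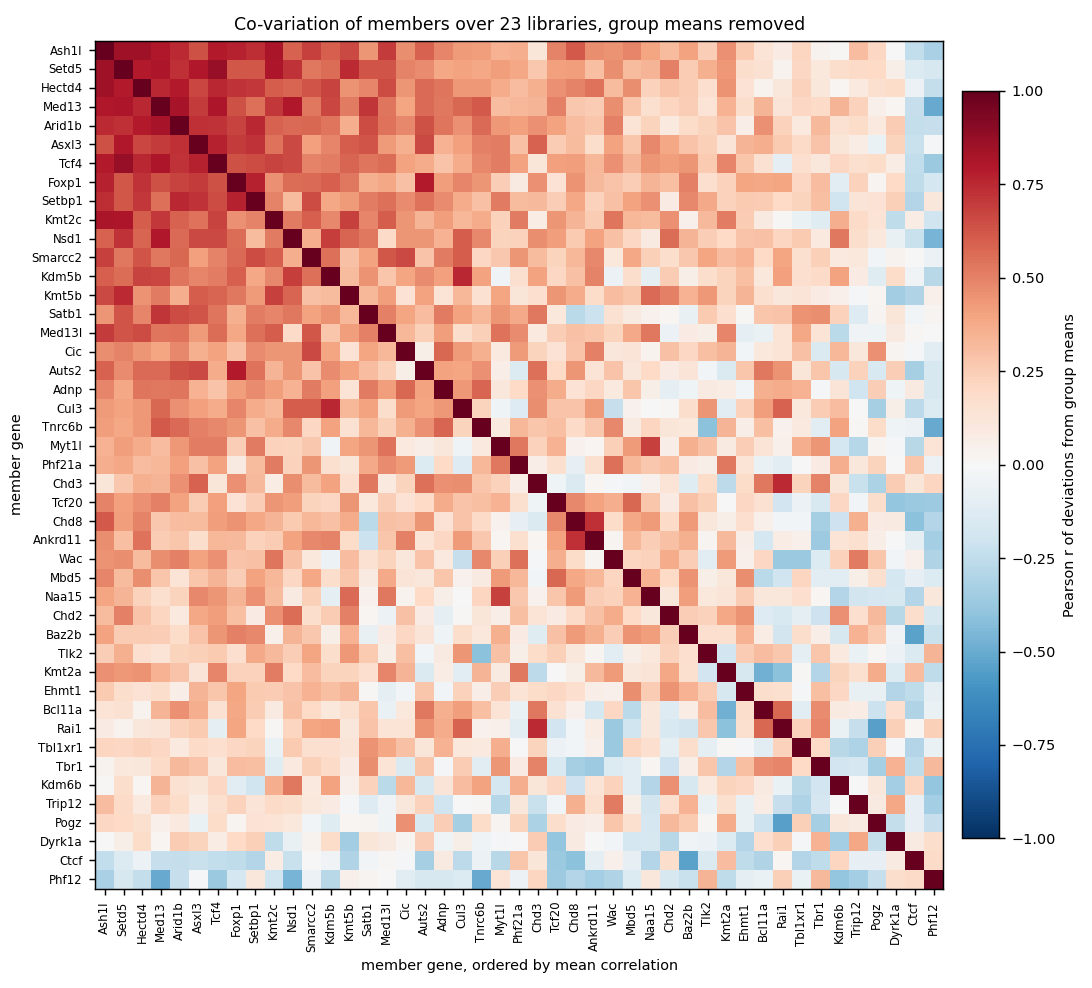
Each cell is the Pearson correlation of 2 of the 45 genes over 23 libraries after removal of group means, with genes ordered by mean correlation from Ash1l to Phf12. The dark block at upper left holds genes such as Ash1l, Setd5, Hectd4, Med13 and Arid1b, and the pale or blue margin holds Pogz, Dyrk1a, Ctcf and Phf12.

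The median level of the 45 in a library followed that of some chromatin lists and not of others. Their median deviation per library ran from -0.084 (HT DCS replicate 3) to 0.060 (HT vehicle replicate 5). Lists of partner genes were taken by their median deviation and marker lists by their mean deviation. With the 16 methyl-CpG readers, DNA methylation enzymes and cohesin genes the correlation was r = 0.86 (Spearman 0.88, 0.79 without the 2 farthest libraries). With the 18 enzymes of H3 lysine 4 and 27 methylation it was 0.83 (0.81 and 0.80), with the 25 partners in corepressors, ubiquitin ligase, RNA silencing and acetyltransferase 0.80 (0.71 and 0.62), and with the 20 cortical and neuronal transcription factors 0.71 (0.53 and 0.50). It was lower for BAF subunits at 0.52 (0.38 and 0.26), Polycomb at 0.42 (0.28 and 0.16), CHD remodellers and NuRD at 0.31 (0.48 and 0.42) and the enzymes of H3K9, H3K36 and H4K20 methylation at 0.14 (0.24 and 0.088). Mediator subunits gave -0.37 (-0.46 and -0.27). Among markers, the values were 0.61 for cortex (0.42 and 0.40), -0.44 for oligodendrocytes (-0.51 and -0.75) and -0.55 for meninges and choroid plexus (-0.45 and -0.37). The other 10 marker lists lay between -0.41 and 0.36. These 22 relations were computed over libraries that share their scaling, and they are given without a p.

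**Figure D5:**
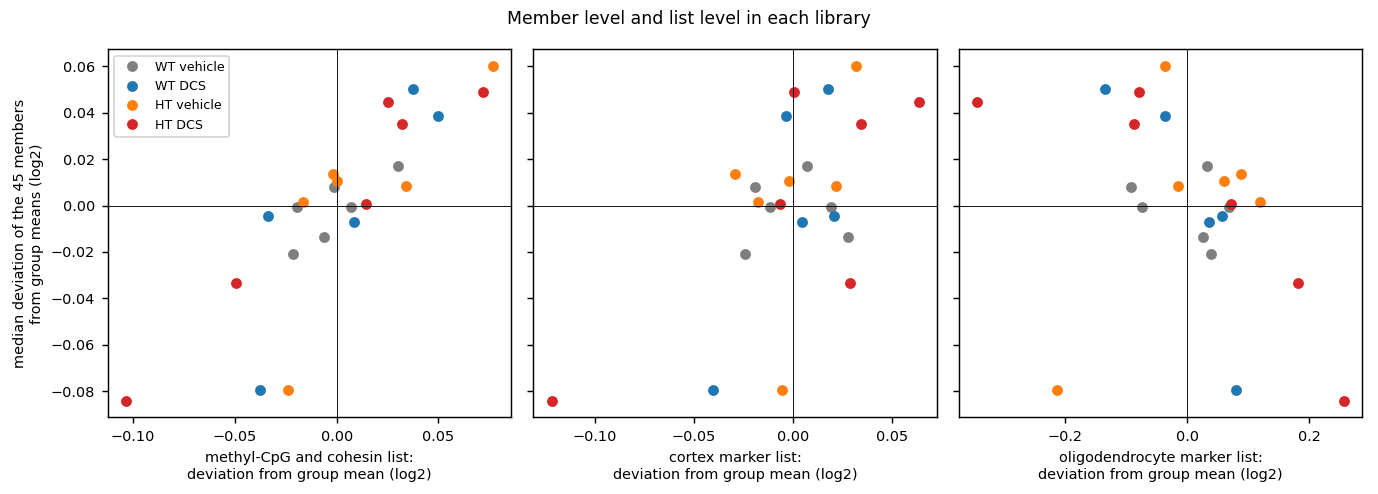
Each dot is 1 of 23 libraries, coloured by group, with the median deviation of the 45 genes from their group means on the vertical axis. The horizontal axis gives the median deviation of the methyl-CpG and cohesin list and the mean deviation of each marker list. Both axes are in log2 units. The dots follow a rising line for the methyl-CpG and cohesin list (r = 0.86), a looser one for cortex markers (r = 0.61), and a falling one for oligodendrocyte markers (r = -0.44).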

How the data were processed

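The authors deposited 1 table of decimal normalised read counts, a signal scaled between libraries, for 18848 genes in 23 libraries (per the labels' protocols, a stranded kit for mRNA). The build GRCm38 and the tools DESeq2 1.26.0, Salmon 1.1.0 and R 3.6.2 are named, per the submitters' processing notes. For roles, annotation and filters: not given in the sources used here. Scaling makes totals alike, so a change in total RNA cannot be seen. Whole reads could not be recovered, since between 56.6% and 78.9% of low values lay within 0.15 of a whole multiple of the worth of 1 read, so no count test was run.

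Log2(value + 1) was fitted with limma 3.58.1 in R 4.3.3, with 1 coefficient per group over all 23 libraries and empirical Bayes moderation (mean trend, robust). Benjamini-Hochberg adjustment at 0.05 ran over 17256 genes with a mean of at least 10, and tests were two-sided. On this scale the changes of low genes are understated. Gene symbols were looked up by identifier (16 had none), positions and exon lengths from GENCODE M21 on GRCm38, and promoter windows from RefSeq. The script was tested on simulated data.

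The genes and lists were chosen with earlier results of these data known. Described in depth are, per comparison, the 3 genes with the smallest p above 0 and the 3 below, then those with extreme levels or variation, and 1 gene per direction from each partner list, of which some are printed. In WT DCS the library titled replicate 5 has the number 6 in its description. Alternatives were other pseudocounts, filters, no trend, quantile normalisation, array weights, only the groups compared, 2 replicate blocks, the numbers 1 to 3 against 4 to 6, and leaving out each library. Leaving out 3 libraries together was added after the data were seen.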

Additional observations from a re-analysis of the deposited data

Results flagged for a closer look

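Of 180 checks of a gene in a group, 15 had 1 library that stood far from the others by Dixon's criterion, which chance meets in about 1 of 20. High libraries were Chd8 in HT DCS replicate 2 (4624, next 3829.9), Adnp in HT DCS replicate 4 (3133, next 2567), Ehmt1 in HT DCS replicate 5 (1671, next 1483) and Baz2b in HT DCS replicate 5 (1626, next 1430.0). Chd3 (26803) and Arid1b (3184) were high in WT vehicle replicate 4, Tcf4 in WT vehicle replicate 5 (9608), and Nsd1 (7455) and Auts2 (2992) in HT vehicle replicate 5.

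Low libraries gathered in HT vehicle replicate 6, where Setd5 (4527, next 4983), Tcf4 (8396, next 9302), Med13l (2683, next 3149) and Hectd4 (12109, next 14252) stood apart. Arid1b was low in WT DCS replicate 2 (2895, next 3234) and Satb1 in WT vehicle replicate 1 (3371, next 3594). No gene moved one way in every library of 1 genotype and the opposite way in every library of the other.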

How the results depend on the processing

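No regulator passed the threshold under any alternative. Leaving out 1 library gave medians of 0.0074 (without HT vehicle replicate 5) to 0.0243 for HT vehicle against WT vehicle, 0.0192 to 0.0517 for HT DCS against WT DCS, -0.0108 to 0.0143 for WT DCS against WT vehicle and 0.0034 to 0.0423 for HT DCS against HT vehicle. The interaction was -0.0045 and the averaged DCS median -0.0008 without HT vehicle replicate 6, both above 0 otherwise. The median pair correlation was 0.2018 to 0.2623 without 1 library and 0.1147 without WT DCS replicate 2, HT vehicle replicate 6 and HT DCS replicate 3 together.

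With the replicate number as a block, the medians were 0.0216, 0.0333, -0.0036 and 0.0235 in the order above, and with the number of the description 0.0216, 0.0237, 0.0101 (29 of 45 above 0) and 0.0235, with 0 of the 45 called. Whether libraries of the same number belong together was not tested. Of 33 same-number pairs 5 correlated above 0.1 (range -0.068 to 0.303), and 7 of 23 libraries correlated best with their own number. The value of 0.303, for replicate 2 of WT vehicle and of WT DCS, was also the highest of any 2 libraries. Over all genes either block called 6 in HT against WT averaged over treatments, where 0 were called without one. Over all libraries 37 of the 45 were higher in numbers 4 to 6 than in 1 to 3, by a median of 0.035, and WT DCS has 2 libraries numbered 4 to 6 and 3 numbered 1 to 3. With that split as a term the medians were 0.0216, 0.0284, 0.0019 and 0.0235, and 4 genes were called in the averaged HT comparison. At this number and depth of libraries, differences well under 0.3 log2 units were within the 95% intervals.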
